A study of Mus musculus with 6 samples.

Results

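Autophagy is the route by which a cell wraps part of its own contents in a membrane and delivers them to lysosomes. A kinase complex starts the process, a lipid kinase complex and lipid transfer proteins build the membrane, and an enzyme cascade couples ubiquitin-like ATG8 proteins to its lipid. Cargo receptors hold ubiquitin-marked material to those ATG8 proteins, and tethering factors bring the closed vesicle to the lysosome. In macrophages much of the same machinery also couples ATG8 proteins to phagosomes that hold microbes, a process called LC3-associated phagocytosis that is known for fungal cargo. The data described here are the RNA levels of 36 genes of this machinery, taken by gene symbol from a table of 54532 genes. All 36 symbols were found, and all 36 averaged 0.5 FPKM or more over the 6 libraries, the level from which genes were tested. FPKM counts fragments per kilobase of gene length and per unit of library depth.

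RNA came from primary macrophages of wild-type mice (METRNL+/+, WT) and of METRNL knockout mice (METRNL-/-, KO). All cells of both genotypes had been cultured and then exposed to the yeast *Candida albicans* for 6 h, and each genotype had 3 libraries. No unexposed cells are analysed here, so every difference is one between genotypes during exposure to the fungus. Strain, age, sex, the macrophages' tissue of origin and the knockout allele's design: not given in the sources used here. Nothing in the labels tells if replicates are separate mice or cultures. The p-values therefore reflect spread between the 3 libraries of a genotype alone, and that spread may be technical.

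Depth was 11026529 to 15724897 reads in genes per library. Replicate 1 stood apart from replicates 2 and 3 in both genotypes (chi-square over degrees of freedom 39.6 to 59.4 for pairs with it, against 7.10 for WT replicates 2 and 3 and 2.30 for KO replicates 2 and 3). With both replicate 1 libraries left out, 13 of the 36 genes were called higher and 0 lower, against 19.2% and 16.3% of all genes. *Metrnl*, the targeted gene, which encodes the secreted protein meteorin-like, was at 93.5, 63.2 and 69.8 FPKM in WT replicates 1 to 3 and at 51.2, 63.6 and 62.8 FPKM in KO replicates 1 to 3. Its groups overlapped (limma adjusted p = 0.181), and a value per gene does not show which exons were read, so KO below stands for the libraries labelled KO. All 8 macrophage markers were above 0 in every library, with a summed level of 4718 to 5513 FPKM in WT and 8457 to 9134 FPKM in KO. Most of that sum was *Lyz2* and *Cd14*, and of the 8 markers 3 were called higher (*Lyz2*, *Adgre1* and *Itgam*) and 1 lower, *Fcgr1* (3.83-fold, limma adjusted p = 0.00419). The 8 B cell markers summed to 550.6 to 709.6 FPKM in WT and to 29.2 to 37.6 FPKM in KO, and all 8 were called lower. None of the 8 was at 0 in all libraries. The 8 T and NK cell markers summed to at least 12.01 FPKM in each WT library and at most 3.03 FPKM in each KO library, and the 4 that were tested were called lower. The 6 dendritic cell markers summed to 98.9 to 114.8 FPKM in WT and 66.2 to 73.2 FPKM in KO, a fall made up mostly of *Ccr7* (60.5 to 13.8 FPKM). Of those 6, 3 were called lower (*Ccr7*, *Flt3* and *Zbtb46*), while *Itgax* and *Xcr1* had all KO libraries above all WT libraries without being called. Mast cell markers summed to 6.51 to 8.08 FPKM in WT and 0.993 to 1.39 FPKM in KO, with 4 of 4 tested called lower. Mesothelial and fibroblast markers summed to 14.1 to 16.4 FPKM and 5.84 to 6.99 FPKM, with 4 of 6 tested called lower, and neutrophil markers to 906.6 to 1211 FPKM and 675.6 to 757.9 FPKM, with 2 of 6 called lower. That neutrophil fall was mostly *S100a8* (734.5 to 361.0 FPKM), called lower with *Mmp8*. *S100a9* (296.6 to 304.4 FPKM), *Ly6g* and *Cxcr2* overlapped between genotypes, and *Mmp9* had all KO libraries above all WT libraries without being called. The RNA extraction text speaks of retinas, but 6 of 8 retinal markers stayed below 0.1 FPKM in every library. In such bulk samples fewer cells of a type and less RNA per cell cannot be told apart. The part of these differences between the groups in the autophagy results was not tested.

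Genes of the machinery that were called higher in KO outnumbered those called lower, and their differences were small. Of the 36 genes, 12 (33.3%) were called higher and 1 (2.78%) lower (limma, Benjamini-Hochberg adjusted p below 0.05 over all 11689 genes tested). Among all genes tested, 15.7% were called higher (1833 genes) and 12.4% lower (1445 genes). With libraries rescaled to TPM, in which every library sums to the same total, 511 (3.35%) of 15259 genes tested were called higher and 1324 (8.68%) lower. The level for testing and the 1 added before taking logs were applied after that rescaling, so their meaning in FPKM changed too. Among the 7702 genes that averaged 2 FPKM or more, 22.5% were called higher and 11.4% lower, against 13 (41.9%) and 0 of 31 members. In FPKM as deposited, the 3 KO libraries lay above all 3 WT libraries for 18 of the 36, against 25.7% of all genes tested. They lay below all WT libraries for 5 (13.9%), against 19.9%. Such orderings, here and for single genes throughout, are given in FPKM as deposited and can change with libraries rescaled to equal totals. KO replicate 1 had the largest sum of FPKM and WT replicate 1 the smallest, so their order is the most open to such a change. Divided by those sums, KO replicate 1 falls below WT replicate 1 for *Rb1cc1*, *Atg13*, *Atg2b*, *Map1lc3b* and *Gabarapl1*. For the other genes called higher it stays above WT replicate 1. The median log2 fold change, taken as KO minus WT of log2(FPKM + 1), was 0.19 for the 36 and 0.03 for all genes tested. With a mean of 2 FPKM required, it was 0.20 for the 31 members and 0.08 for the 7702 genes tested. The single values of the 36 ran from -0.35 for *Ulk2* to 0.70 for *Atg12*. The largest ratio of mean FPKM was 1.86, for *Epg5*. Relative to its WT mean, the median member stood at 98.6% to 102.6% in the WT libraries and at 113.3% to 121.4% in the KO libraries. That median comes from all 36 genes, and in FPKM as deposited the KO libraries lay together above the WT libraries in it. FPKM column sums ran from 311409.5 (WT replicate 1) to 412048.1 (KO replicate 1), and these percentages were not rescaled to equal totals. Divided by these sums, the median of KO replicate 1 falls below that of WT replicate 1. With TPM the median log2 fold change was 0.13 for the 36, against -0.06 for the 15259 genes tested there.

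**Figure D1:**
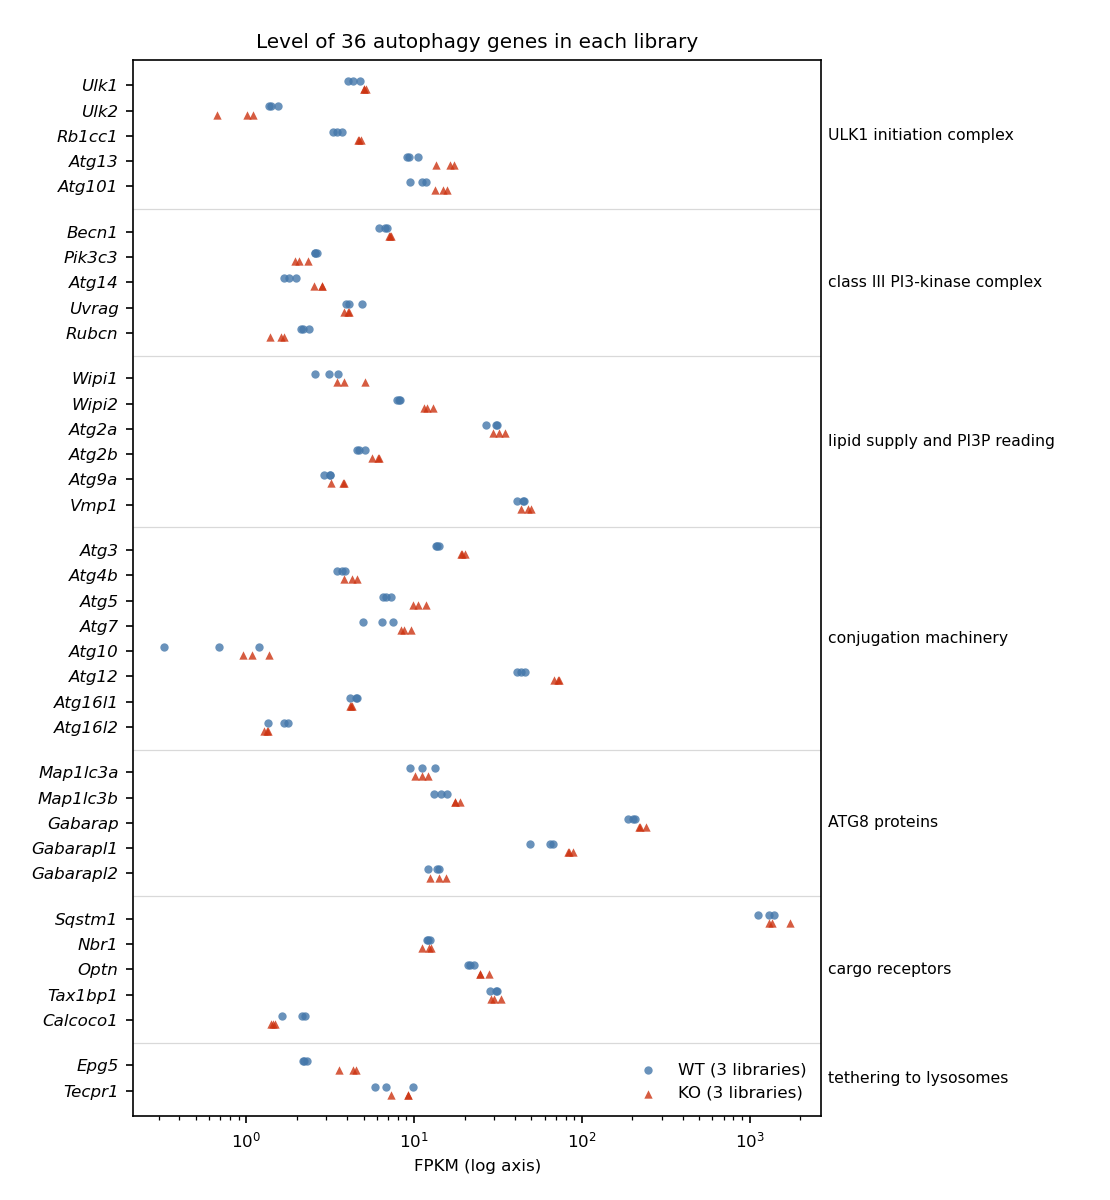
FPKM of each of the 36 autophagy genes on a log axis, with 3 WT libraries as circles and 3 KO libraries as triangles, grouped by role. The genes span levels from about 1 FPKM (*Atg10*, *Ulk2*) to a mean of 1281 FPKM in WT (*Sqstm1*), and the KO triangles lie apart from the WT circles on the right for 18 genes and on the left for 5.

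The ULK1 complex is the kinase that starts autophagy when nutrients or growth signals fall. Of its 5 genes 3 were called higher (60.0%, against 15.7% of all genes). *Atg13*, which links the kinase to its scaffold (chromosome 2, 91674618 to 91710576, minus strand, GRCm38), was at 10.6, 9.04 and 9.27 FPKM in WT replicates 1 to 3 and at 13.5, 17.2 and 16.4 FPKM in KO replicates 1 to 3. Every KO library was above every WT library, with KO replicate 1 nearest to WT. The mean rose 1.63-fold, from 9.62 ± 0.813 to 15.7 ± 1.93 FPKM (SD, n = 3 per genotype; log2 fold change 0.65, SE 0.11, adjusted p = 0.00769 by limma). *Rb1cc1* encodes FIP200, the large scaffold of the complex (chromosome 1, 6206197 to 6276648, plus strand). It was at 3.73, 3.47 and 3.29 FPKM in WT and at 4.70, 4.62 and 4.86 FPKM in KO. The groups were narrow and apart, and the rise was 1.35-fold (log2 fold change 0.35, SE 0.07, adjusted p = 0.0136 by limma). *Atg101*, which stabilises ATG13 (chromosome 15, 101284272 to 101290945, plus strand), was at 11.2, 9.41 and 11.8 FPKM in WT and at 15.8, 13.3 and 14.8 FPKM in KO. Its rise was also 1.35-fold (log2 fold change 0.41, SE 0.10, adjusted p = 0.0318 by limma).

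The kinase genes themselves did not pass the test. *Ulk1* was at 4.77, 4.06 and 4.33 FPKM in WT and at 5.21, 5.04 and 5.04 FPKM in KO, which puts all KO libraries above WT (log2 fold change 0.18, 95% confidence interval 0.0032 to 0.36, limma adjusted p = 0.117). Its paralogue *Ulk2* lay the other way, at 1.56, 1.36 and 1.40 FPKM in WT and at 0.667, 1.10 and 1.02 FPKM in KO (log2 fold change -0.35, interval -0.62 to -0.07, limma adjusted p = 0.0662). In FPKM, which is per length, *Ulk1* was the more abundant of the pair in all 6 libraries.

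The class III PI3-kinase complex makes the lipid PI3P on the growing membrane, and its genes went both ways. *Atg14*, the subunit that sends the complex to sites of autophagosome formation (chromosome 14, 47540893 to 47570649, minus strand), was at 1.98, 1.67 and 1.79 FPKM in WT and at 2.82, 2.84 and 2.53 FPKM in KO. Its groups did not overlap, and it rose 1.51-fold (log2 fold change 0.41, SE 0.08, adjusted p = 0.0137 by limma). *Rubcn* encodes Rubicon, an inhibitor of autophagosome maturation that is required for LC3-associated phagocytosis (chromosome 16, 32821703 to 32877766, minus strand). It was at 2.13, 2.36 and 2.18 FPKM in WT and at 1.39, 1.68 and 1.62 FPKM in KO. All KO libraries were below all WT libraries, and *Rubcn* was the only one of the 36 called lower, by 1.42-fold (log2 fold change -0.33, SE 0.08, adjusted p = 0.0279 by limma). It shares 267 bases with *Fyttd1* on the opposite strand, which stood at 5.68 FPKM in WT and 6.10 in KO. The sources used here do not give whether counting used strand, so reads of that stretch cannot be assigned.

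The core of that complex differed less. *Becn1*, the scaffold Beclin 1, had all KO libraries (7.08, 7.20 and 7.24 FPKM) above all WT libraries (6.71, 6.16 and 6.88 FPKM), with a log2 fold change of 0.11 that did not pass (limma adjusted p = 0.26). *Pik3c3*, the lipid kinase VPS34, had all KO libraries (1.96, 2.07 and 2.33 FPKM) below all WT libraries (2.56, 2.64 and 2.58 FPKM), and its log2 fold change of -0.20 did not pass either (limma adjusted p = 0.0937). *Uvrag*, the subunit of the endosomal form of the complex, overlapped between genotypes, at 3.91 to 4.90 FPKM in WT and 3.81 to 4.12 in KO.

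Of the genes that read PI3P and supply lipid, 2 of 6 were called higher (33.3%, against 15.7% of all genes). All 6 had a positive log2 fold change, as did 6291 of the 11689 genes tested. *Wipi2* encodes the PI3P-binding protein that recruits the conjugation enzymes (chromosome 5, 142627698 to 142670588, plus strand). Its level was 8.13, 7.89 and 8.21 FPKM in WT and 13.0, 11.4 and 11.9 in KO. The WT values were nearly equal and all KO values were higher, a 1.499-fold rise (8.08 ± 0.162 to 12.1 ± 0.809 FPKM, SD, n = 3 per genotype; log2 fold change 0.53, SE 0.07, adjusted p = 0.00352 by limma). *Atg2b*, a lipid transfer protein that feeds the membrane (chromosome 12, 105616136 to 105685211, minus strand), was at 4.71, 5.11 and 4.54 FPKM in WT and at 5.58, 6.13 and 6.21 FPKM in KO, 1.25-fold higher (log2 fold change 0.27, SE 0.07, adjusted p = 0.0385 by limma). It shares 383 bases with *Gskip* on the opposite strand, which was itself called higher (5.76 to 8.37 FPKM, limma adjusted p = 0.00901). *Atg2a*, its more abundant paralogue, stood at 29.7 ± 2.38 FPKM in WT and 32.2 ± 2.59 in KO with overlapping groups. *Vmp1*, an ER scramblase gene, was the most abundant of the 6, at 44.5, 45.5 and 41.3 FPKM in WT and 43.5, 49.6 and 47.5 in KO, again overlapping. *Wipi1* overlapped as well (2.56 to 3.51 FPKM in WT, 3.495 to 5.07 FPKM in KO). *Atg9a*, the scramblase on the vesicles that seed the membrane, had its KO libraries (3.21 to 3.84 FPKM) just above its WT libraries (2.90 to 3.18 FPKM) without passing the test (limma adjusted p = 0.165).

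**Figure D2:**
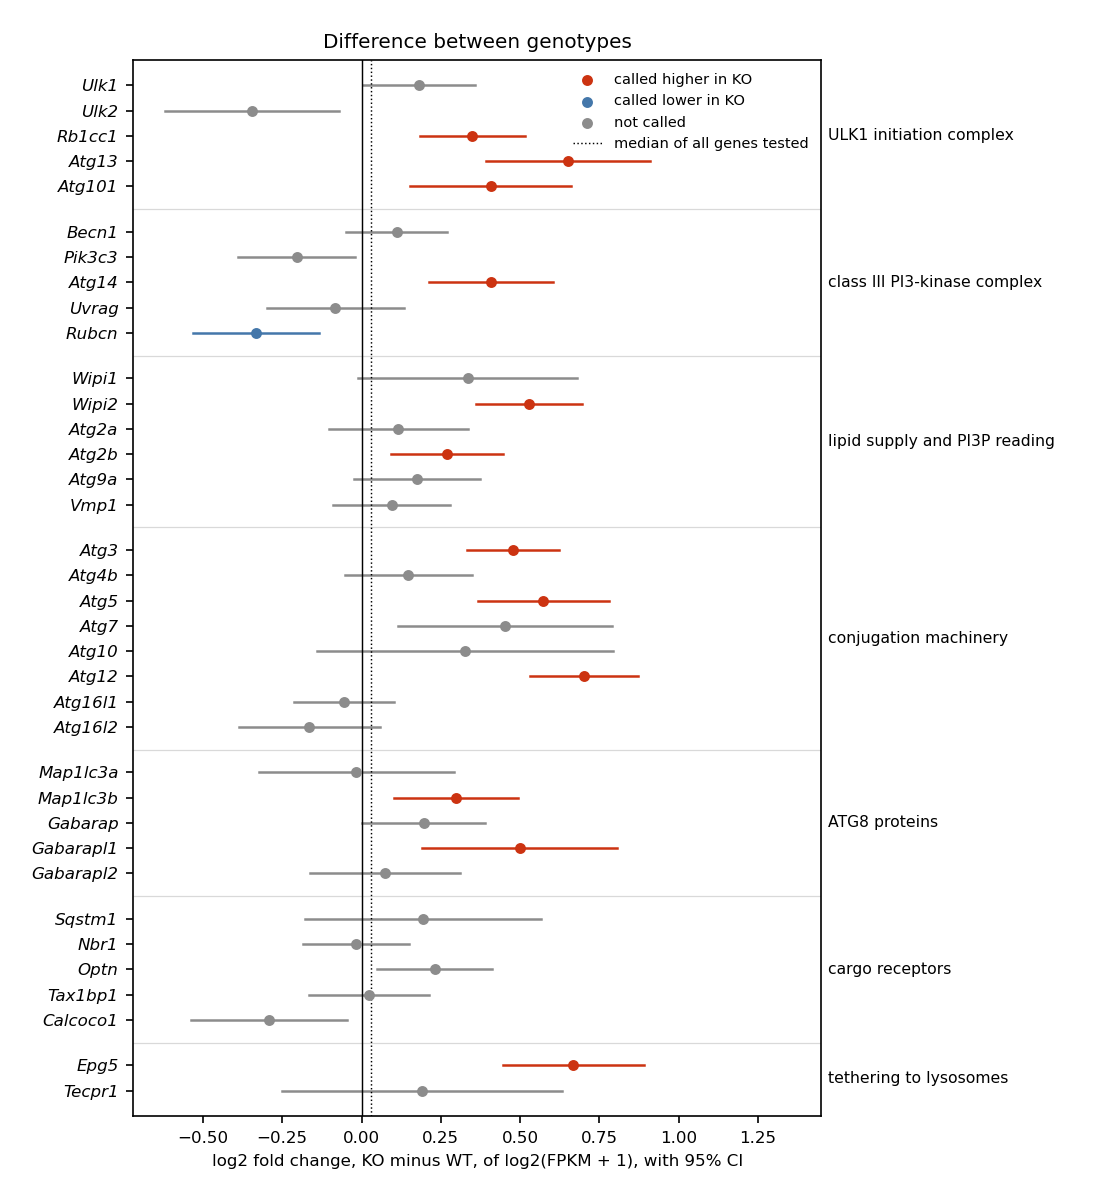
Log2 fold change of each gene, as KO minus WT of log2(FPKM + 1), with its 95% confidence interval from limma, grouped by role. Red marks the 12 genes called higher, blue *Rubcn*, the 1 called lower, and grey the 23 not called, and the dotted line is the median of all genes tested (0.03).

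The conjugation machinery is a pair of linked enzyme cascades in which ATG7 activates, ATG10 and ATG3 transfer, and the ATG12-ATG5-ATG16L1 assembly places ATG8 proteins on lipid. Of its 8 genes 3 were called higher (37.5%, against 15.7% of all genes). *Atg3*, the enzyme that carries ATG8 proteins to their lipid (chromosome 16, 45158785 to 45188538, plus strand), was at 13.4, 13.6 and 14.2 FPKM in WT and at 19.0, 20.2 and 19.4 FPKM in KO. The values within each genotype were close and no KO value was near a WT value, with a 1.42-fold rise (log2 fold change 0.48, SE 0.06, adjusted p = 0.00306 by limma). *Atg5*, the acceptor of ATG12 (chromosome 10, 44268358 to 44364291, plus strand), was at 6.55, 6.79 and 7.34 FPKM in WT and at 10.6, 9.83 and 11.8 FPKM in KO. All KO libraries were higher, and the rise was 1.56-fold (log2 fold change 0.57, SE 0.09, adjusted p = 0.00555 by limma).

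The promoters of *Atg3* and *Atg5* are shown because both genes were called higher and both hold the letters CACGTG. Being picked by both traits, they cannot show a link between the letters and the call. Those letters are the core of the E-box that TFEB, TFE3 and MITF bind in lysosome and autophagy genes. RefSeq promoter windows (GRCm38.p6) were at hand for 29 of the 36 genes, 9 of them called higher. The 250 bases before the transcription start were searched on both strands. CACGTG was in the windows of 4 of the 29 genes (13.8%), against 6.86% of 27025 genes with a window. Of the 9 called higher, 2 held CACGTG and 1 the longer form GTCACGTG. The longer form GTCACGTG, which contains CACGTG, was in 2 of the 29, *Atg3* and *Atg7* (6.90%), against 2.11% of all genes. *Atg3* holds it at 2 places, beginning 96 and 73 bases before the start, and *Atg5* holds CACGTG beginning 14 bases before the start. The other windows with CACGTG belong to *Atg7* and *Rubcn* and lie at starts inside those genes. In the lines below capitals mark the matched letters, GTCACGTG for *Atg3*, CACGTG for *Atg5* and the antioxidant response core TGACNNNGC, a motif of NRF2, for *Atg13*.
Atg3, chr16:45158579-45158828, plus strand: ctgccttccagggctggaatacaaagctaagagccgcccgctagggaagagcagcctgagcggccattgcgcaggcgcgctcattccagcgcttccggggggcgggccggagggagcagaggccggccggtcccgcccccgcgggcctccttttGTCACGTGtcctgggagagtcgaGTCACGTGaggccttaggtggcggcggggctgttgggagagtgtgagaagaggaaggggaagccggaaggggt
Atg5, chr10:44268089-44268338, plus strand: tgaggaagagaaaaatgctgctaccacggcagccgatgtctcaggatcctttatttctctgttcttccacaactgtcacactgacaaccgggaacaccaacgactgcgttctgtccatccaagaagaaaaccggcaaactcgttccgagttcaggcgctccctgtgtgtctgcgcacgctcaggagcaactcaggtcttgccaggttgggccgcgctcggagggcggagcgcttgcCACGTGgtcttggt
Atg13, chr2:91710593-91710842, minus strand: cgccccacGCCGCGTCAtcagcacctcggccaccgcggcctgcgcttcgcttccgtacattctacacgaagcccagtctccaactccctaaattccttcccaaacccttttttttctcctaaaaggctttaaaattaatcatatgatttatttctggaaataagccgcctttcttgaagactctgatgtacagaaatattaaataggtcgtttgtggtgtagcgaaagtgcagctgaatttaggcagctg
TGACNNNGC was in 4 of the 29 genes (13.8%, against 11.5% of all genes), of which *Atg13* was the only one called higher, and the others were *Tax1bp1*, *Ulk2* and *Vmp1*. The C/EBP-ATF element TGATGNAAT, a motif of ATF4, and the forkhead element GTAAACA were in 0 of the 29 windows, against 0.91% and 3.54% of all genes. A match describes letters only, and a missing match says only that these letters are not in this window.

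*Atg12* had the largest log2 fold change of the 36. This ubiquitin-like protein gene (chromosome 18, 46732417 to 46741579, minus strand) was at 45.7, 43.3 and 40.8 FPKM in WT and at 68.2, 71.8 and 72.9 FPKM in KO. No KO library came near a WT library. The mean went from 43.3 ± 2.47 to 71.0 ± 2.46 FPKM (SD, n = 3 per genotype), 1.64-fold higher (log2 fold change 0.70, SE 0.07, adjusted p = 0.00139 by limma).

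The other conjugation genes were not called. *Atg7*, the activating enzyme of both cascades, had all KO libraries (8.37, 9.57 and 8.73 FPKM) above all WT libraries (7.54, 4.94 and 6.43 FPKM), but WT was widely spread and the test was just missed (log2 fold change 0.45, interval 0.12 to 0.79, limma adjusted p = 0.0554). *Atg10*, the transfer enzyme for ATG12, was the least abundant of the 36, at 0.690, 1.19 and 0.326 FPKM in WT and 0.956, 1.36 and 1.09 in KO. As few as 7 reads stood behind a library's value for *Atg10*. *Atg16l1*, the partner of ATG12-ATG5, was at 4.41 ± 0.217 FPKM in WT and 4.21 ± 0.0748 in KO, with an interval of -0.21 to 0.10 for its log2 fold change. Its paralogue *Atg16l2* was lower in every KO library (1.28 to 1.34 FPKM) than in any WT library (1.35 to 1.77 FPKM) without passing (limma adjusted p = 0.232). *Atg16l2* shares 21372 bases of its span with *Fchsd2* on the opposite strand, which averaged 1.96 FPKM against 1.46 for *Atg16l2*. With the strand setting not given, reads of that stretch cannot be assigned. The protease gene *Atg4b*, which trims ATG8 proteins, overlapped between genotypes (3.47 to 3.89 FPKM in WT, 3.80 to 4.59 FPKM in KO).

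ATG8 proteins are the ubiquitin-like tags that mark the autophagosome, and 2 of their 5 genes were called higher (40.0%, against 15.7% of all genes). *Gabarapl1* (chromosome 6, 129533160 to 129542346, plus strand) was at 67.3, 49.1 and 64.8 FPKM in WT and at 83.8, 83.0 and 88.1 FPKM in KO. The KO values were close to each other and above WT, where replicate 2 was low. The rise was 1.41-fold (60.4 ± 9.90 to 84.99 ± 2.76 FPKM, SD, n = 3 per genotype; log2 fold change 0.50, SE 0.13, adjusted p = 0.031 by limma). *Map1lc3b*, which encodes LC3B, the most widely used autophagosome marker (chromosome 8, 121590361 to 121598760, plus strand), was at 15.7, 13.1 and 14.4 FPKM in WT and at 17.5, 17.5 and 18.7 FPKM in KO. Its groups did not overlap either, with a 1.24-fold rise (log2 fold change 0.30, SE 0.08, adjusted p = 0.0371 by limma). A read-through gene model on the same strand, *Gm20388*, covers all 8400 bases of *Map1lc3b* and is listed at 0 FPKM.

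*Gabarap* was the most abundant ATG8 gene, at 200.9, 187.6 and 208.8 FPKM in WT and 242.0, 222.9 and 219.9 in KO. It made up 62.7% to 69.1% of the summed ATG8 level of each library. All KO libraries were higher, but the difference did not pass (log2 fold change 0.20, interval 0.0025 to 0.39, limma adjusted p = 0.119). *Gabarapl2* was at 13.3 ± 0.984 FPKM in WT and 14.04 ± 1.53 in KO, and *Map1lc3a*, which encodes LC3A, at 11.3 ± 1.92 and 11.1 ± 0.973 FPKM, both with overlapping groups. The summed level of the 5 genes was 309.2, 271.4 and 315.0 FPKM in WT and 369.0, 349.6 and 350.4 in KO. Divided by the FPKM sum of its library, the level of KO replicate 1 falls below that of WT replicate 1.

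No cargo receptor gene was called among 5, where 15.7% of all genes were called higher and 12.4% lower. *Sqstm1*, which encodes p62, the receptor that links ubiquitin to LC3, was by far the most abundant of the 36 and ranked 29 among all 54532 genes by mean FPKM. It made up 94.7% to 95.9% of the summed receptor level in each library. Its values were 1129, 1311 and 1402 FPKM in WT and 1744, 1308 and 1362 in KO. KO replicate 1 was the highest and WT replicate 1 the lowest, while the other libraries of both genotypes lay between 1308 and 1402 FPKM. The log2 fold change was 0.19 with an interval of -0.18 to 0.57 (limma adjusted p = 0.398), and it turned slightly negative without both replicate 1 libraries (-0.02) and with quantile normalization (-0.04). *Optn*, a receptor phosphorylated by TBK1 and used for bacteria and mitochondria, had all KO libraries (27.9, 24.7 and 24.6 FPKM) above all WT libraries (20.97, 21.5 and 22.8 FPKM) but did not pass (log2 fold change 0.23, limma adjusted p = 0.0659). *Calcoco1*, an ER-phagy receptor, had all KO libraries (1.49, 1.40 and 1.44 FPKM) below all WT libraries (2.14, 1.63 and 2.24 FPKM), also without passing (log2 fold change -0.29, limma adjusted p = 0.0787). *Nbr1* and *Tax1bp1*, which act with p62 on ubiquitin condensates, had narrow intervals around 0, from -0.18 to 0.15 and from -0.17 to 0.21.

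Of the genes for tethering to lysosomes, *Epg5* showed the largest ratio of means among the 36. Its protein binds RAB7 and LC3 and brings autophagosomes to late endosomes and lysosomes (chromosome 18, 77938467 to 78035027, plus strand). It was at 2.21, 2.29 and 2.16 FPKM in WT and at 3.56, 4.50 and 4.35 FPKM in KO. The WT libraries were nearly equal, and all KO libraries were higher, with replicate 1 the lowest of them. The rise was 1.86-fold (2.22 ± 0.0646 to 4.14 ± 0.508 FPKM, SD, n = 3 per genotype; log2 fold change 0.67, SE 0.09, adjusted p = 0.00421 by limma). *Tecpr1*, another tether, varied widely within WT, at 9.81, 5.87 and 6.80 FPKM, and stood at 7.26, 9.24 and 9.21 FPKM in KO.

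Other genes of the pathway are given by list. These lists, like the 36 genes, were chosen with earlier results of these data known, so their counts are no independent evidence of a direction. Of 14 other core factors 8 (57.1%) were called higher and 0 lower, against 15.7% and 12.4% of all genes tested (median log2 fold change 0.31). Calls in that list fell to 1 with TPM and to 3 without WT replicate 2 or KO replicate 2, and to 4 without WT replicate 3 or KO replicate 3. The largest was *Tex264*, an ER-phagy receptor, at 13.4, 11.1 and 11.4 FPKM in WT and 21.4, 26.6 and 24.4 in KO, a 2.02-fold rise (limma adjusted p = 0.00199). *Wdr45b*, a PI3P-binding relative of WIPI2, rose 1.40-fold (limma adjusted p = 0.00483), *Tmem41b*, an ER scramblase that acts with VMP1, 1.52-fold (adjusted p = 0.00653), the protease gene *Atg4c* 1.55-fold (adjusted p = 0.0177) and *Wac* 1.24-fold (adjusted p = 0.0184). *Sh3glb1*, which encodes the Beclin 1 partner BIF-1 and was the most abundant of that list, was at 29.2 ± 3.18 FPKM in WT and 33.2 ± 4.42 in KO (limma adjusted p = 0.325). Among 13 tested receptors for organelles and other cargo, 3 (23.1%, against 15.7% of all genes) were called higher and 0 lower, namely *Tollip* (1.57-fold, 62.0 ± 1.65 to 97.3 ± 2.90 FPKM, SD, n = 3 per genotype, limma adjusted p = 0.00124), the mitophagy receptor gene *Fkbp8* (1.33-fold) and *Bnip3* (1.24-fold). Only 1 call was left in that list with TPM and without KO replicate 2 or KO replicate 3, 2 were left without WT replicate 2 or WT replicate 3, and 5 were made without KO replicate 1.

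The list of fusion genes holds SNAREs and the HOPS complex, which join autophagosome and lysosome, with *Rab7*, *Plekhm1* and *Tecpr2*. Of its 13 genes 5 were called higher (38.5%, against 15.7% of all genes) and 1 lower (7.69%, against 12.4%). Their median log2 fold change was 0.27. The 6 calls fell to 0 with TPM, to 1 without WT replicate 3 or KO replicate 3 and to 2 without WT replicate 2 or KO replicate 2. The HOPS gene *Vps33a* went from 13.5, 12.1 and 11.9 FPKM to 18.2, 18.6 and 18.4 FPKM, 1.47-fold higher (limma adjusted p = 0.0034). The SNARE genes *Ykt6*, *Snap29* and *Vamp8* rose 1.44-fold, 1.39-fold and 1.30-fold (limma adjusted p = 0.0125, 0.0207 and 0.0198). The gene called lower was the HOPS subunit gene *Vps16* (1.21-fold, limma adjusted p = 0.0416). *Stx17*, the SNARE on the autophagosome, was at 0.967 to 1.12 FPKM in WT and 0.641 to 0.790 in KO, apart but not called (limma adjusted p = 0.114). *Rab7*, the late endosomal GTPase and most abundant of the list, was at 424.2 ± 27.3 FPKM in WT and 472.3 ± 18.7 in KO and was not called.

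Among the kinases and regulators upstream, 5 of 16 tested genes were called higher (31.2%, against 15.7% of all genes) and 0 lower. Calls in that list fell to 2 without WT replicate 2 or WT replicate 3 and to 3 with TPM, without WT replicate 1 or without KO replicate 2. *Rheb*, the GTPase that activates the growth kinase mTORC1, an inhibitor of autophagy, was at 11.8, 11.2 and 11.1 FPKM in WT and 23.0, 23.9 and 23.5 in KO, 2.06-fold higher (limma adjusted p = 2.18e-04). *Sesn2*, a leucine sensor and inhibitor of mTORC1, was at 11.8, 11.4 and 11.7 FPKM in WT and 69.0, 62.1 and 63.1 in KO (5.57-fold, limma adjusted p = 2.23e-05). Its paralogues lay the other way, with all KO libraries below all WT libraries. *Sesn3* was at 0.715, 0.701 and 0.848 FPKM in WT and 0.179, 0.137 and 0.166 in KO and was under the level for testing. *Sesn1* was at 0.517, 0.747 and 0.802 FPKM in WT and 0.157, 0.414 and 0.452 in KO and was not called (limma adjusted p = 0.111). The list thus held rises in genes that act on mTORC1 in opposite directions. *Prkab1*, a subunit of the energy sensor AMPK, rose 1.39-fold (limma adjusted p = 0.0175), *Akt1s1* 1.28-fold (adjusted p = 0.0308) and *Tsc1* 1.24-fold (adjusted p = 0.0499), while *Mtor* was at 3.495 ± 0.280 FPKM in WT and 2.91 ± 0.360 in KO and was not called (limma adjusted p = 0.162). *Ddit4*, the most abundant of the list, had KO replicate 1 far above the rest (320.1 against 154.2 and 155.7 FPKM) and WT replicate 1 far below (72.3 against 137.4 and 144.0 FPKM), and was not called (limma adjusted p = 0.164).

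Transcription factors of autophagy genes moved in both directions, with 4 of 12 called higher (33.3%, against 15.7% of all genes) and 2 lower (16.7%, against 12.4%). The 6 calls fell to 3 with TPM and without KO replicate 2 or KO replicate 3, and to 4 without WT replicate 2 or WT replicate 3. *Tfeb*, the best known activator of lysosome and autophagy genes, was at 2.89, 2.34 and 2.44 FPKM in WT and 1.17, 1.38 and 1.36 in KO, 1.96-fold lower (limma adjusted p = 0.00541). Its relatives *Mitf* (5.38 ± 1.03 to 8.25 ± 0.223 FPKM, SD, n = 3 per genotype, limma adjusted p = 0.0228) and *Tfe3* (8.98 ± 0.0533 to 10.5 ± 0.267 FPKM, limma adjusted p = 0.0386) were higher by 1.53-fold and 1.17-fold. *Foxo1*, a forkhead activator of autophagy genes, was 2.33-fold lower (2.90, 2.77 and 2.82 FPKM in WT, 1.06, 1.34 and 1.25 FPKM in KO, limma adjusted p = 0.00148). *Atf4*, the activator of the amino acid response, rose 1.62-fold (limma adjusted p = 0.00347), and *Ddit3*, which encodes its partner CHOP, 1.96-fold (adjusted p = 0.0228). *Cebpb*, the most abundant of the list, overlapped between genotypes (758.7 ± 92.1 FPKM in WT, 890.0 ± 132.4 FPKM in KO, SD, n = 3 per genotype). B cells also carry *Foxo1*, and the 8 B cell markers fell in the same libraries, from a sum of 550.6 to 709.6 FPKM to one of 29.2 to 37.6 FPKM. The part of those cells in the fall of *Foxo1* or *Tfeb* was not tested. In the NADPH oxidase, which LC3-associated phagocytosis needs, 1 of 6 genes was called higher (16.7%, near the 15.7% of all genes), the membrane subunit gene *Cyba* (453.4, 387.6 and 433.7 FPKM in WT, 732.6, 649.3 and 685.4 FPKM in KO, 1.62-fold, limma adjusted p = 0.00475). Its partner *Cybb* was at 331.5, 429.0 and 430.4 FPKM in WT and 627.2, 414.6 and 421.6 in KO, with KO replicate 1 alone above WT.

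**Figure D3:**
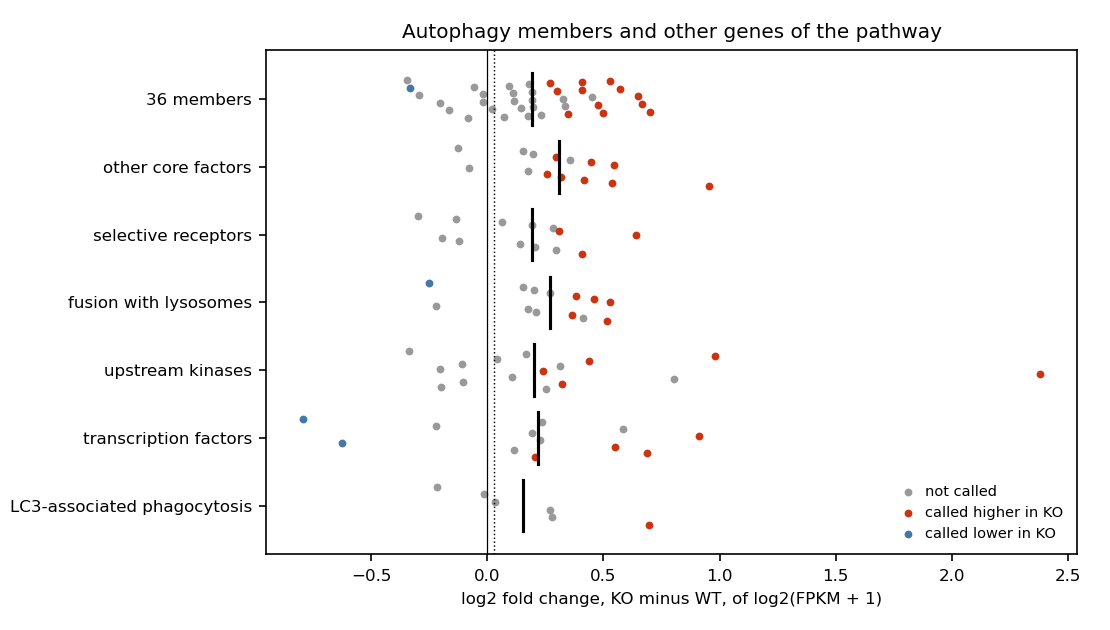
Log2 fold change, as KO minus WT of log2(FPKM + 1), for the 36 members and the tested genes of 6 other lists, 1 point per gene. Black bars are list medians, which lie between 0.15 and 0.31, right of the dotted median of all genes tested (0.03), and the point farthest right is *Sesn2* (2.38).

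The calls differed in how well they held under 14 other settings. *Wipi2*, *Atg5* and *Atg12* were called higher under all 14. *Atg3* and *Epg5* were called under 13 and lost only with TPM (adjusted p = 0.0928 and 0.0503, limma). *Atg13* was called under 12, lost with TPM and with the replicate number as a block. *Rb1cc1* and *Atg14* were called under 10, with adjusted p up to 0.233 and 0.125 (limma). Besides TPM and the block, *Rb1cc1* was lost without WT replicate 3 or KO replicate 3, and *Atg14* without WT replicate 3 or KO replicate 2. *Atg2b* and *Gabarapl1* were called under 6, *Map1lc3b* under 5 and *Atg101* under 3, with limma adjusted p up to 0.433, 0.166, 0.400 and 0.143. Leaving out any single library ended the call of *Atg101*, any but KO replicate 1 that of *Atg2b*, any but WT replicate 1 that of *Map1lc3b*, and any but WT replicate 1 or 2 that of *Gabarapl1*. The lower call of *Rubcn* was kept under 2 of the 13 settings in which it was tested and was lost when any single library was left out (limma adjusted p from 0.0251 to 0.114 over the 13). All 12 genes called higher had all KO libraries above all WT libraries in FPKM as deposited. Leaving out libraries or changing the filter, trend, block or pseudocount therefore could not turn the sign of their log2 fold change. TPM and quantile normalization could, and under both it stayed positive for all 12.

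The number of the 36 called higher was 12 as reported and fell to 6 without WT replicate 3 and to 7 without KO replicate 2 or KO replicate 3. The background fell too, to 9.06%, 7.76% and 7.73% of all genes, against 16.7%, 19.4% and 19.4% of the 36. With TPM 3 of the 36 (8.33%) were called higher, against 3.35% of 15259 genes tested. Over the 11689 genes, TPM moved the median log2 fold change from 0.03 to -0.04. Under every setting the share of the 36 called higher exceeded that of all genes, a difference that was not tested.

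**Figure D4:**
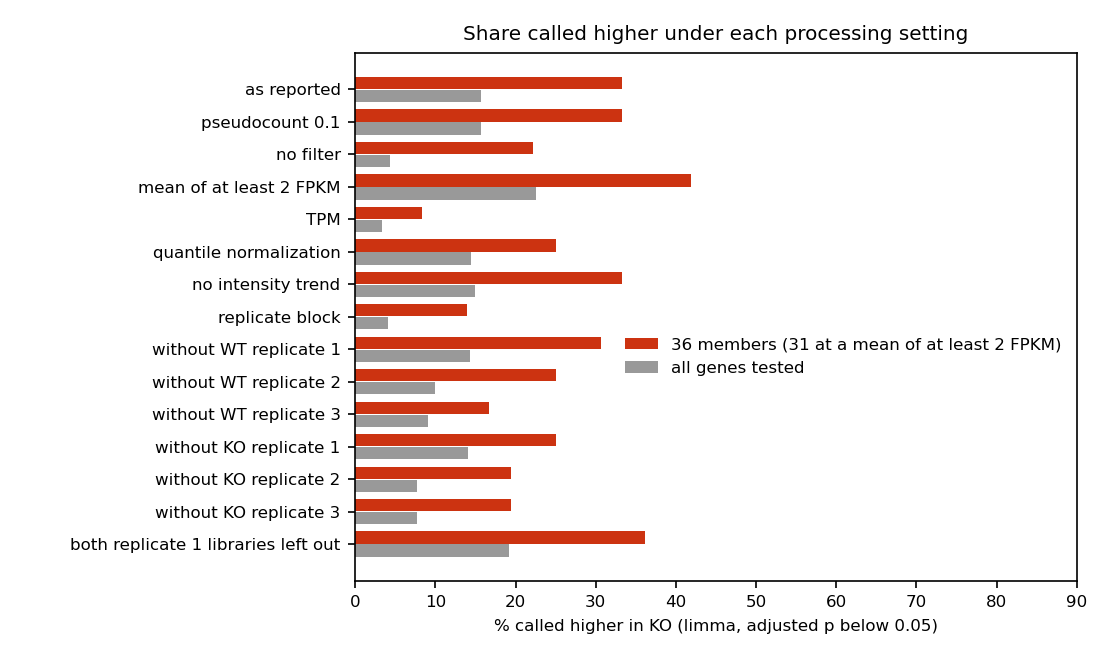
Share called higher in KO under each setting, as percent of the 36 autophagy genes (red; 31 were tested where a mean of 2 FPKM was required) and of all genes tested (grey), by limma at adjusted p below 0.05. The red bars run from 8.33% (TPM) to 41.9% (mean of 2 FPKM or more) and the grey bars from 3.35% to 22.5%.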

How the data were processed

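The samples were 3 WT and 3 KO libraries of macrophages exposed to *Candida albicans*, grouped and numbered by their titles. The authors deposited FPKM values per gene, with gene lengths and coordinates. Per the submitters' processing notes the genome was GRCm38 (mm10). Aligner, counter, annotation release and strand setting: not given in the sources used here. Multiplying FPKM by gene length gave whole multiples of a unit fixed within a library, taken as 1 read, in 100% of nonzero values (tolerance 0.05 read), from which depth was taken. Column sums of FPKM differed between libraries, from 311409 to 412048. Pairs of libraries of a genotype differed by more than sampling noise (chi-square over degrees of freedom 2.30 for KO replicates 2 and 3, 7.10 for WT replicates 2 and 3 and 39.6 to 59.4 for pairs with replicate 1), so none was taken for a repeat deposit of another. This does not show that they were independent.

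Tests used limma 3.58.1 in R 4.3.3 on log2(FPKM + 1) of the 11689 genes that averaged 0.5 FPKM or more, with eBayes, an intensity trend and Benjamini-Hochberg adjustment over all genes. The log2(FPKM + 1) scale understates changes of low genes. Folds are ratios of mean FPKM. A symbol on several rows (*Ddit3*) takes the row with the highest mean. The fit was tested on simulated reads with larger changes than those of the 36 genes and equal noise in all libraries. That test does not cover such small changes or a replicate that stands apart. Members and lists were chosen with earlier results of these data known. Named genes were all 36 members, up to 5 called genes with the smallest p and the most abundant gene of each other list, and *Metrnl*. Genes named beyond these (*Stx17*, *Sesn1*, *Sesn3*, *Mtor*, *Tfe3*, *Cybb* the marker genes and the overlapping genes) were chosen after their values were seen. GENCODE M21 held all 36 members, 34 with the same start and end. 19 of them overlap another annotated gene, 8 a protein-coding gene. Alternatives were TPM, pseudocount 0.1, dropping the filter, raising it to 2 FPKM, quantile normalization, eBayes without the trend, a replicate block, each library left out, and both replicate 1 libraries left out. For TPM the filter of 0.5 and the added 1 were applied after rescaling.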

Additional observations from a re-analysis of the deposited data

How the results depend on the processing

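The number of the 36 called higher, 12, was 3 with TPM, 5 with a replicate block and 6 to 11 with 1 library left out. The 11, without WT replicate 1, held 10 of the 12 and *Atg7*. The number called lower, 1 (*Rubcn*), was 0 with no filter, TPM, a required mean of 2 FPKM (where *Rubcn* was not tested), quantile normalization, the block or both replicate 1 libraries left out. It was 0 to 1 with 1 library left out, and that 1, without WT replicate 2, was *Calcoco1*. The median log2 fold change of the members, 0.19, was 0.13 with TPM and 0.15 without both replicate 1 libraries. Over all genes, 511 (TPM), 479 (block) and 908 to 1674 (1 library left out) were called higher, and 876 (mean of at least 2 FPKM), 604 (block) and 849 to 1353 (1 library left out) lower. Calls among other core factors (8) numbered 5 with no filter, 1 with TPM, 3 with the block and 3 to 6 with 1 library left out. Those of selective receptors (3) numbered 5 (mean of at least 2 FPKM), 1 (TPM), 2 (quantile), 1 (block), 6 (both replicate 1 libraries left out) and 1 to 5. Fusion genes (6) gave 4 (no filter and no trend), 0 (TPM), 2 (quantile), 1 (block) and 1 to 6. Upstream kinases (5) gave 3 (TPM), 3 (block) and 2 to 4, and transcription factors (6) 3 (no filter), 3 (TPM), 2 (block) and 3 to 6. The NADPH oxidase list (1) gave 3 without both replicate 1 libraries and 1 to 2 with 1 library left out. The cause of these changes was not tested.

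Nothing in the labels tells if libraries with the same replicate number were paired. Deviations of same-numbered WT and KO libraries from their group means correlated at -0.50, -0.19 and -0.16. These values cannot decide it, because deviations within 3 libraries are tied to each other and replicate 1 stood apart in both genotypes. The replicate block, with 5 members called higher and 0 lower, was kept as an alternative only. With 3 libraries per genotype, low genes such as *Atg10* rest on few reads.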
